A study of Mus musculus with 12 samples.

Results

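The 9 genes examined here handle the inhibitory transmitter GABA in astrocytes. They are Slc6a11 (the GABA transporter GAT-3), Abat and Aldh5a1 (the enzymes of GABA breakdown), Maob (monoamine oxidase B), Gabbr1 and Gabbr2 (the subunits of the GABA-B receptor) and Gabra2, Gabrb1 and Gabrg1 (subunits of GABA-A receptors). They were chosen by name from the 56791 gene names of the deposited table, and all 9 were found there and passed the filter on low values. The study profiled RNA of hippocampal astrocytes of adult, naive male mice, sorted on the astrocyte surface antigen ACSA-2. The genotype labelled cKO was GfapcreERT2:Tnfrsf1bfl/fl, in which a Cre recombinase that tamoxifen activates is driven by the Gfap promoter and Tnfrsf1b, the gene of the TNF receptor TNFR2, is floxed; tamoxifen dosing is not given in the sources used here. The genotype labelled Ctrl was Tnfrsf1bfl/fl, so the floxed gene was common to both groups and Cre was not. There were 6 libraries of each genotype, made up of S1 and S2 for A1, A2 and A8 (Ctrl) and for A4, A9 and A10 (cKO). S1 and S2 were averaged per A number, which gave 3 units per genotype. The labels define neither A nor S and do not say that the A numbers were separate animals, so p-values measure only the spread between A numbers.

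GABA released at synapses is cleared by transporters of the SLC6 family, of which GAT-3 is found mainly on astrocytes. Inside the cell, GABA transaminase turns GABA into succinic semialdehyde, which succinic semialdehyde dehydrogenase passes to the citric acid cycle. Astrocytes can also make GABA from putrescine, a route in which monoamine oxidase B takes part. GABA-B receptors are G protein-coupled dimers of GABBR1 and GABBR2, and GABA-A receptors are chloride channels assembled from subunits of the alpha, beta, gamma and other classes.

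Levels are in FPKM, which counts fragments per kilobase of gene and per 1000000 assigned, so that genes of different length can be set side by side. Depth recovered from the steps between low values was 17311872 to 35323322 reads per library, and every library held at least 1053 reads of each of the 9 genes. S1 and S2 of an A number differed by at most 0.12 in any of these genes on the log2(FPKM + 1) scale, whereas the 6 units spanned 0.21 (Gabbr1) to 0.87 (Gabbr2).

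The sort and the labels were checked first. The 10 astrocyte markers summed to 3340 to 3958 FPKM in the Ctrl units and 3906 to 4598 FPKM in the cKO units. Transcripts of oligodendrocytes were also present, with 8 markers summing to 1006 to 2174 FPKM in Ctrl and 288 to 686 FPKM in cKO, and 0 of the 8 passed (limma adjusted p 0.320 to 0.446). The sums of 5 microglia markers did not overlap either, at 3.74 to 4.40 FPKM in Ctrl and 6.26 to 15.5 FPKM in cKO. P2ry12 was the most abundant of them on average in both (log2 fold change 1.26, limma adjusted p = 0.433). Of these markers only P2ry12 had all cKO units above all Ctrl units, as did 5.76% of all genes tested. The units of the rest overlapped. Among 8 neuronal markers, which include the GABA neuron genes Gad1, Gad2 and Slc32a1, the sum was 3.45 to 6.75 FPKM in Ctrl and 2.99 to 4.05 FPKM in cKO. The 4 ependymal markers summed to 45.3 to 185 FPKM in Ctrl and 34.3 to 121 FPKM in cKO. The 4 mural markers had 45.9 to 65.3 and 59.5 to 65.9 FPKM, and the 4 endothelial markers 3.56 to 42.7 and 3.43 to 29.7 FPKM. Those of fibroblasts and meninges had 3.53 to 6.95 and 4.54 to 12.6 FPKM. The genotypes overlapped in each of these lists. The targeted gene Tnfrsf1b was above 0 in 1 of 6 Ctrl libraries (0.0551 FPKM) and in 2 of 6 cKO libraries, both of A4 (0.119 and 0.163 FPKM). Levels this low in both genotypes leave the labels unchecked. In sorted cells measured in bulk, fewer cells of a type and less RNA per cell cannot be told apart.

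In Ctrl and cKO alike, Slc6a11 was the most abundant of the 9 genes. It averaged 193 FPKM over the 12 libraries and held rank 108 among the 17540 genes tested. Gabbr1 (74.6 FPKM), Gabrb1 (48.3 FPKM) and Abat (47.4 FPKM) followed, then Maob (35.0 FPKM), Gabrg1 (30.8 FPKM) and Aldh5a1 (21.6 FPKM), and last Gabbr2 (13.3 FPKM) and Gabra2 (12.3 FPKM). Slc6a11, Gabbr1 and Aldh5a1 kept ranks 1, 2 and 7 within the 9 in all 6 units. Of the 8 pairs of neighbours in this order, 5 had the same gene higher in 6 of 6 units (exact sign-flip permutation p = 0.03125, two-sided, the smallest that 6 units can give). Their Benjamini-Hochberg adjusted p was 0.05, so 0 of the 8 pairs fell under the threshold of 0.05. The pairs and their order came from the means of the same 6 units, so these tests are a description. In the remaining pairs, the higher gene was not the same in all 6 units. These were Gabrb1 and Abat (higher in 4 of 6 units, exact permutation p = 1), Maob and Gabrg1 (5 of 6, exact p = 0.0938) and Gabbr2 and Gabra2 (3 of 6, exact p = 0.719).

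**Figure D1:**
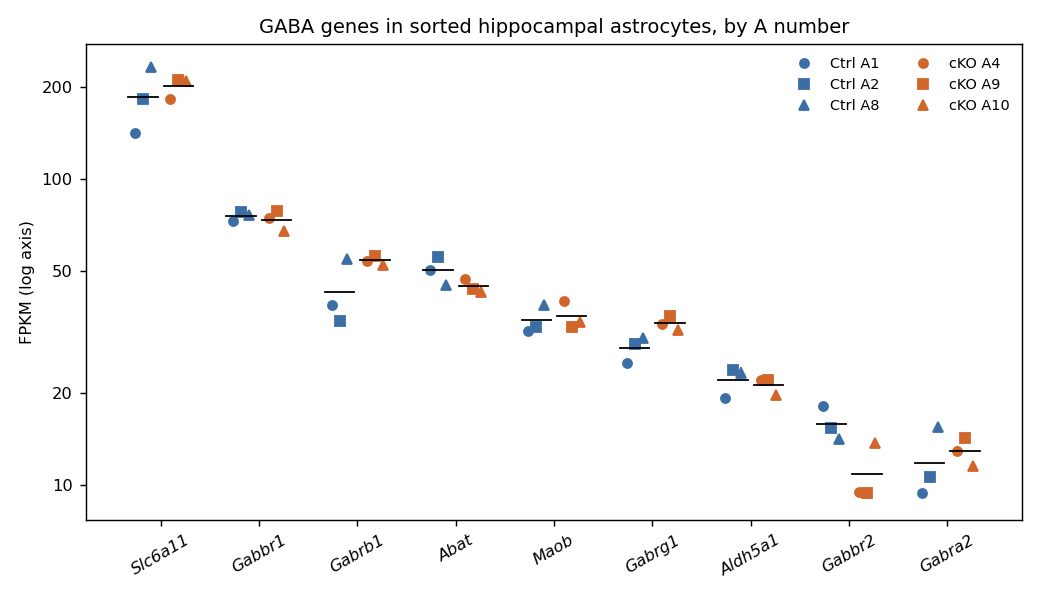
FPKM of the 9 GABA genes (log axis), with a point for each A number (the mean of S1 and S2, which a thin line joins where they stand apart), blue for Ctrl, orange for cKO, and a black bar for the mean of 3 units. Slc6a11 lies above the other 8 genes in each unit, the Ctrl and cKO points of Gabbr2 and Gabrg1 do not overlap, and those of the other 7 genes do.

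The bases before the start of Gabrg1 differ in composition from those of Slc6a11 and Gabra2. Promoter sequence from RefSeq (GRCm38.p6) was matched by gene name for 7 of the 9 genes. The window positions are on GRCm38.p6, and the start is that of the RefSeq promoter set. They do not line up with the gene positions given below, which are as deposited with the build unsettled. Shown are the 250 bases before the start, 5′ to 3′ on the gene's strand, for Slc6a11 as the most abundant member and for Gabrg1 and Gabra2 as neighbours in a receptor gene cluster, with capitals marking motif matches on either strand.
Slc6a11 (chr6:114130991-114131240, plus strand): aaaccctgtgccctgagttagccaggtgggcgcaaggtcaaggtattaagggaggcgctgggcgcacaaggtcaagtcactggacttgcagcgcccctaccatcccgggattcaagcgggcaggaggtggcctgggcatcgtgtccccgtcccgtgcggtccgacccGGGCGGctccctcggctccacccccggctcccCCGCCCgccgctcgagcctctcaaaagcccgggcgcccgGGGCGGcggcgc
Gabrg1 (chr5:70842618-70842867, minus strand): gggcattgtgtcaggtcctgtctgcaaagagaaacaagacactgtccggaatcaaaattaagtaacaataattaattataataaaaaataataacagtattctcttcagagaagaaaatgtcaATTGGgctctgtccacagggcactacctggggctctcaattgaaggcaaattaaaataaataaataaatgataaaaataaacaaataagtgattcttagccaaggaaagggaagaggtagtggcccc
Gabra2 (chr5:71095850-71096099, minus strand): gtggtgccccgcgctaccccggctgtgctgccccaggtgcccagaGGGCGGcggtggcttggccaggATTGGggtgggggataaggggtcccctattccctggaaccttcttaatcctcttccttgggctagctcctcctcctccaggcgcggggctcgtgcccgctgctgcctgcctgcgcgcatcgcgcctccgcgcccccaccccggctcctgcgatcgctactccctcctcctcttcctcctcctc
The Gabrg1 window is 35.6% G and C, lower than in all but 5.41% of the 32851 promoter windows, whose median is 52.4%. By contrast, the Slc6a11 window is 71.2% and the Gabra2 window 70.0% G and C. Slc6a11 has 3 matches to the GC box GGGCGG, which 32.7% of all windows hold, and Gabra2 has 1. The CCAAT box CCAAT, found in 33.8% of all windows, has 1 match in Gabrg1 and 1 in Gabra2, and none in Slc6a11. The TATA box TATAAA (12.4% of windows), the E-box CACGTG (6.02%), the AP-1 site TGANTCA (6.75%) and the NF-kB consensus (3.90%) have no match in these 3 windows. A match is a description of letters, not a site.

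The comparison of cKO with Ctrl asks whether these transcripts differ when Tnfrsf1b can be deleted in astrocytes. None of the 9 genes passed the threshold, with 0 of 9 at a limma adjusted p under 0.05, as was the case for 0 of all 17540 genes (0%). At an unadjusted p under 0.05 there was 1 of the 9, Gabbr2, lower in cKO, against 4.71% of all genes in that direction and 7.69% in either. The 3 cKO units lay wholly above or below the 3 Ctrl units in 2 of the 9, Gabrg1 and Gabbr2, against 13.0% of all genes (5.76% above and 7.22% below). The median log2 fold change was 0.046 in the 9 genes, 5 of them above 0 and 4 below, and -0.0065 in all genes. The sign turned under astrocyte marker scaling for Slc6a11, Maob and Gabra2, under upper quartile scaling for Aldh5a1 and Gabbr1, and under rescaling to 1000000 for Maob. Astrocyte marker scaling also shifted the median of all genes to -0.18, and the log2 fold changes given under it below include that shift.

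**Figure D2:**
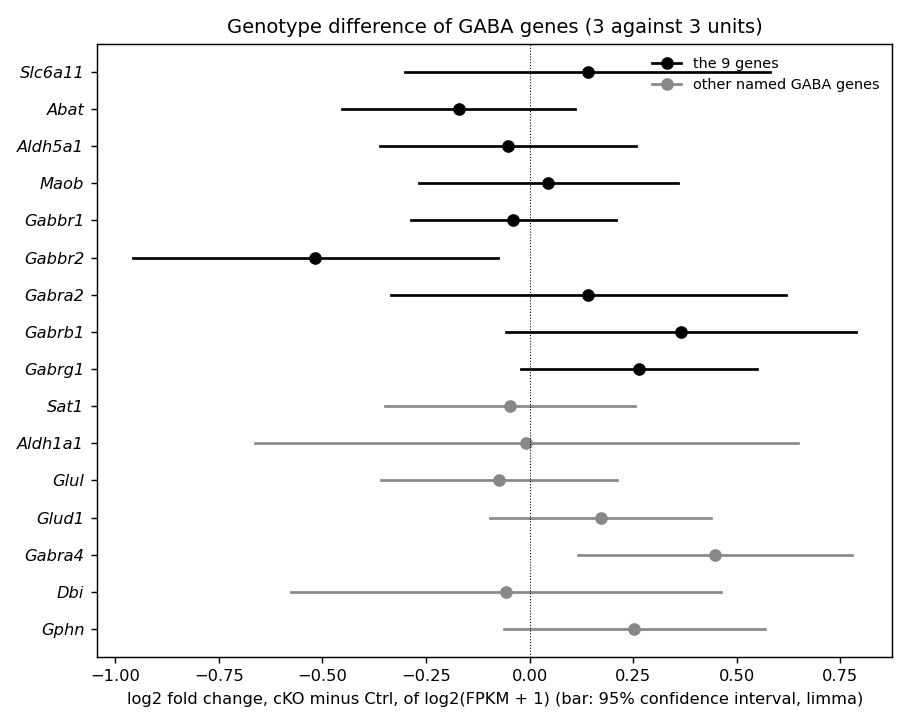
Log2 fold change (cKO minus Ctrl, on log2(FPKM + 1)) as points with 95% confidence intervals from limma, for the 9 genes (black) and the other named GABA genes (grey), from 3 units of each genotype. The intervals of Gabbr2 (below 0) and Gabra4 (above 0) leave out 0 before adjustment over all genes, and those of the other 14 genes include it.

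Slc6a11 (ENSMUSG00000030307, chromosome 6, start 114108202, end 114226913 as deposited) clears GABA from around synapses and was measured at 142, 183 and 231 FPKM in Ctrl A1, A2 and A8. In cKO A4, A9 and A10 it stood at 183, 210 and 209 FPKM. All 3 cKO units lay within the range of the Ctrl units, whose lowest and highest were A1 and A8. Mean levels of 185 ± 45.0 (Ctrl) and 201 ± 15.4 FPKM (cKO; SD, n = 3 each) gave a log2 fold change of 0.14 (95% confidence interval -0.30 to 0.58, limma adjusted p = 0.929). Without A1 the log2 fold change was -0.038 and without A8 it was 0.31.

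Among other transporter genes, Slc6a13 (GAT-2) averaged 0.476 FPKM, Slc6a12 (the betaine and GABA transporter) 0.382 FPKM, and the vesicular transporter gene Slc32a1 had at most 1 read in any library.

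Over the 6 units, the genes outside the 9 whose log2(FPKM + 1) followed Slc6a11 most closely were Fam222b (Pearson r = 0.996), Rb1cc1 (r = 0.992) and Fam20a (r = 0.992). These are descriptions over 6 points that share libraries, and 249 of the 17531 genes compared had an r above 0.9.

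Abat (ENSMUSG00000057880, chromosome 16, start 8331293, end 8439432) encodes GABA transaminase, the first step of GABA breakdown. Its level was 50.5, 55.6 and 45.1 FPKM in Ctrl A1, A2 and A8 and 47.1, 43.7 and 42.7 FPKM in cKO A4, A9 and A10. Only Ctrl A8 fell inside the cKO range. The means of 50.4 ± 5.25 and 44.5 ± 2.28 FPKM (SD, n = 3 each) gave a log2 fold change of -0.17 (95% confidence interval -0.45 to 0.11, limma adjusted p = 0.836). It was -0.10 without A2. With the astrocyte marker scaling it was -0.38, where the median of all genes shifted to -0.18.

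Aldh5a1 (ENSMUSG00000035936, chromosome 13, start 25091562, end 25121644), which encodes succinic semialdehyde dehydrogenase, varied little. It was measured at 19.2, 23.8 and 23.2 FPKM in Ctrl A1, A2 and A8 and at 21.9, 22.1 and 19.6 FPKM in cKO A4, A9 and A10, so the groups overlapped. The log2 fold change was -0.052 (95% confidence interval -0.36 to 0.26, limma adjusted p = 0.969). Exons of the long noncoding RNAs 4932702P03Rik and 9330162012Rik on the opposite strand cover 14.1% and 3.59% of its length, and the use of strand in counting is not given in the sources used here, so part of its value may be theirs.

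Within a unit, Abat exceeded Aldh5a1 by a ratio of 1.95 (A8) to 2.62 (A1). Glul, the gene of glutamine synthetase, had the highest level of the listed GABA genes, at 1015 ± 63.8 (Ctrl) and 964 ± 68.2 FPKM (cKO; SD, n = 3 each; log2 fold change -0.074, limma adjusted p = 0.945). Glud1 (glutamate dehydrogenase) was at 204 ± 19.6 and 229.5 ± 8.99 FPKM (log2 fold change 0.17, limma adjusted p = 0.824), and its 3 cKO units lay above the 3 Ctrl units. For Glud1 the log2 fold change was -0.038 with the astrocyte marker scaling and 0.093 without A1. Of the 6 listed genes of breakdown and glutamine return beyond Abat and Aldh5a1, 5 were tested and 0 passed.

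Maob (ENSMUSG00000040147, chromosome X, start 16575521, end 16683605) oxidises monoamines and an acetylated putrescine on the way to GABA. Ctrl A1, A2 and A8 had 31.9, 32.8 and 38.6 FPKM, and cKO A4, A9 and A10 had 39.9, 32.7 and 34.1 FPKM. The ranges of the genotypes were nearly the same. The log2 fold change was 0.046 (95% confidence interval -0.27 to 0.36, limma adjusted p = 0.975). Maob was 2.08 (A9) to 2.98 (A10) times as abundant per length as its paralogue Maoa within a unit.

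The classical route of GABA synthesis was low. Gad1 and Gad2, the glutamate decarboxylases that mark GABA neurons, averaged 0.293 and 0.0835 FPKM, from 24 to 112 reads per library for Gad1 and 0 to 44 for Gad2. Of the putrescine route, Sat1 (acetylation of polyamines) was at 75.9 ± 9.39 (Ctrl) and 73.2 ± 5.29 FPKM (cKO) and Aldh1a1 (an aldehyde dehydrogenase) at 18.7 ± 5.49 and 18.5 ± 5.16 FPKM (SD, n = 3 each). Of 7 listed genes of synthesis, 5 were tested, all 5 had a log2 fold change below 0 with a median of -0.058, and 0 passed, whereas over all genes 8918 of 17540 were below 0. Upper quartile scaling turned the signs of Sat1 and Aldh1a1.

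Gabbr1 (ENSMUSG00000024462, chromosome 17, start 37356858, end 37385959), which binds GABA in the GABA-B receptor, was the member with the narrowest span over the units. It stood at 72.6, 77.9 and 76.2 FPKM in Ctrl A1, A2 and A8 and at 74.7, 78.4 and 67.7 FPKM in cKO A4, A9 and A10. The groups overlapped, with a log2 fold change of -0.039 (95% confidence interval -0.29 to 0.21, limma adjusted p = 0.970).

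Gabbr2 (ENSMUSG00000039809, chromosome 4, start 46662305, end 46991873), which carries the signal to the G protein, had the lowest unadjusted p of the 9. Its values were 18.02, 15.3 and 14.1 FPKM in Ctrl A1, A2 and A8 and 9.44, 9.40 and 13.7 FPKM in cKO A4, A9 and A10. All 6 cKO libraries (highest 13.75 FPKM) lay below all 6 Ctrl libraries (lowest 13.83 FPKM), by a margin that rests on A10 and A8, and 7.10% of all genes had libraries that did not overlap. The means of 15.8 ± 2.01 and 10.9 ± 2.49 FPKM (SD, n = 3 each) gave a cKO to Ctrl ratio of 0.687 and a log2 fold change of -0.52 (SE 0.19, 95% confidence interval -0.96 to -0.077, unadjusted p = 0.0275, limma adjusted p = 0.584), which did not pass. The units stayed apart under the other 3 scalings of the libraries. When each library was scaled to its astrocyte markers, the log2 fold change was -0.71, where the median of all genes shifted to -0.18. Leaving out each A number gave -0.68 (without A10) to -0.42 (without A1).

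The units ordered by Gabbr2 were in the order of the oligodendrocyte sum, apart from the places of A1 with A2 and of A9 with A4. Both had all cKO units below all Ctrl units, as did 7.22% of all genes tested, so only the order within a genotype could differ. The share of all genes in this order was not computed. A8 was lowest among the Ctrl units in Gabbr2 and in the oligodendrocyte sum (1006 FPKM, against 1995 in A1 and 2174 in A2). In cKO, A10 was highest in both (686 FPKM, against 412 in A9 and 288 in A4). All 8 oligodendrocyte markers had a log2 fold change below 0, with a median of -1.76, and none of the 8 was at 0 in all libraries. The 4 markers of oligodendrocyte precursors summed to 47.6 to 69.4 FPKM in Ctrl and 28.7 to 43.6 FPKM in cKO. Of the 4, only Sox10 had all cKO units below all Ctrl units (log2 fold change -1.75, limma adjusted p = 0.419). The units of Pdgfra, Cspg4 and Olig2 overlapped between the genotypes. The part of oligodendrocytes and their precursors in the Gabbr2 result was not tested.

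The ratio of Gabbr1 to Gabbr2 within a unit was 4.03, 5.09 and 5.41 in Ctrl A1, A2 and A8 and 7.91, 8.35 and 4.94 in cKO A4, A9 and A10. A10 lay inside the Ctrl range, so the genotypes overlapped in this ratio. Of the auxiliary subunits of GABA-B receptors, Kctd12 averaged 5.28 FPKM, Kctd16 0.377 FPKM and Kctd8 0.259 FPKM.

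**Figure D3:**
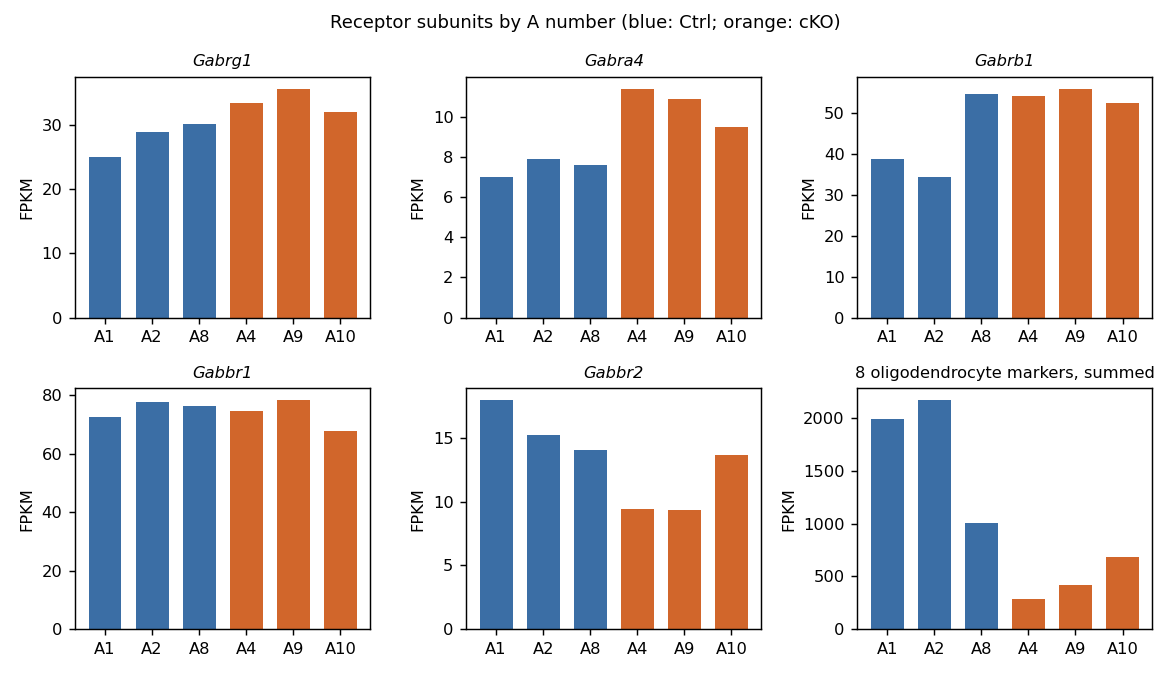
FPKM of 5 receptor subunit genes and the summed FPKM of 8 oligodendrocyte markers in each A number (bars: mean of S1 and S2, from 0; blue: Ctrl; orange: cKO). Gabrg1 and Gabra4 are higher in each cKO unit than in any Ctrl unit, Gabbr2 and the oligodendrocyte sum are lower, and Ctrl A8 has the Gabrb1 level of the cKO units.

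Gabrg1, Gabra2 and Gabrb1 lie in a cluster on chromosome 5 that also holds Gabra4 and, among protein-coding genes, only Cox7b2 besides. The gamma 1, alpha 2 and beta 1 subunits are the classes from which a complete GABA-A receptor can be built. Per length, Gabrb1 was 1.19 (A2) to 1.82 (A8) times Gabrg1 and 3.24 (A2) to 4.54 (A10) times Gabra2 within a unit.

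Gabrg1 (ENSMUSG00000001260, chromosome 5, start 70908390, end 70999960) had 24.9, 28.9 and 30.1 FPKM in Ctrl A1, A2 and A8. The cKO units A4, A9 and A10 had 33.5, 35.7 and 32.0 FPKM, and all of them were higher than all Ctrl units. Mean levels of 28.0 ± 2.69 and 33.7 ± 1.85 FPKM (SD, n = 3 each) gave a cKO to Ctrl ratio of 1.21 and a log2 fold change of 0.26 (SE 0.12, 95% confidence interval -0.020 to 0.55, limma adjusted p = 0.684). When each library was scaled to its astrocyte markers, the units overlapped and the log2 fold change was 0.060, where the median of all genes shifted to -0.18.

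Gabrb1 (ENSMUSG00000029212, chromosome 5, start 71815456, end 72306380) had 38.7, 34.2 and 54.7 FPKM in Ctrl A1, A2 and A8 and 54.0, 55.9 and 52.4 FPKM in cKO A4, A9 and A10. Ctrl A8 stood with the cKO units and the other Ctrl units stood below them. The log2 fold change was 0.37 (SE 0.18, 95% confidence interval -0.056 to 0.79, limma adjusted p = 0.717). Its size depended on A8 and A2, since without A8 it was 0.56 (limma adjusted p = 0.133), and without A2 it was 0.23 (limma adjusted p = 0.859). With the astrocyte marker scaling it was 0.16.

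Gabra2 (ENSMUSG00000000560, chromosome 5, start 71114940, end 71253192) was the lowest of the 9, at 9.38, 10.6 and 15.5 FPKM in Ctrl A1, A2 and A8 and 12.9, 14.2 and 11.5 FPKM in cKO A4, A9 and A10. A8 was again the highest Ctrl unit and exceeded every cKO unit. The log2 fold change was 0.14 (95% confidence interval -0.34 to 0.62, limma adjusted p = 0.935). It was 0.34 without A8 and 0.0042 without A1.

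Gabra4, the remaining receptor gene of the cluster, was measured at 7.001, 7.90 and 7.59 FPKM in Ctrl A1, A2 and A8 and at 11.4, 10.9 and 9.51 FPKM in cKO A4, A9 and A10. Every cKO library was above every Ctrl library, and 7.10% of all genes had libraries that did not overlap in either direction. Its log2 fold change was 0.45 (SE 0.14, 95% confidence interval 0.12 to 0.78, unadjusted p = 0.0150, limma adjusted p = 0.489), which did not pass. With the astrocyte marker scaling it was 0.26 (unadjusted p = 0.132, limma adjusted p = 0.597), and the units stayed apart under that and the other 2 scalings. Its exons share 46 bases, 0.756% of their length, with those of Gabrb1 on the opposite strand.

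The units ordered from low to high Gabrg1 were in the order from high to low oligodendrocyte sum, apart from the places of A1 with A2 and of A9 with A4. The genotypes did not overlap in either, so only the order within a genotype could differ. How many of all genes have this order was not computed. The astrocyte markers had a log2 fold change above 0 in 9 of 10, with a median of 0.21 and 0 of 10 past the threshold. The microglia sum was also higher in each cKO unit than in each Ctrl unit, which held for P2ry12 alone of its 5 markers. The ependymal sum was 185, 174 and 45.3 FPKM in Ctrl A1, A2 and A8. In cKO A4, A9 and A10 it was 87.3, 34.3 and 121 FPKM. From high to low ependymal sum, the units ran from low to high Gabra2, apart from the places of A8 with A9. They ran from low to high Gabrb1, apart from the places of A1 with A2. The ependymal list was singled out from several marker lists, and the share of all genes in such an order was not computed. Whether these shares of cell types bear on the GABA-A values was not tested.

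Most other GABA-A subunits were scarce. Of 16 listed, 5 reached a mean of 1 FPKM, Gabra4 the highest of them, and 0 of these passed the threshold. Gabrb2, a subunit common in neurons, averaged 0.148 FPKM. Gabra6, Gabrp, Gabrq and Gabrr3 were listed at 0 in all 12 libraries, where 3 reads of Gabra6 would be 0.0341 to 0.0696 FPKM.

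Among genes that anchor or modulate GABA receptors, Dbi, whose product binds at the benzodiazepine site, had 236 ± 56.8 (Ctrl) and 226 ± 42.3 FPKM (cKO; SD, n = 3 each). Gphn, which encodes the scaffold gephyrin, had 19.96 ± 2.65 and 23.8 ± 0.483 FPKM (SD, n = 3 each; log2 fold change 0.25, limma adjusted p = 0.742), and its cKO units lay above the Ctrl units. Gphn had a log2 fold change of 0.051 with the astrocyte marker scaling and 0.15 without A2. In all, 21 of the 41 other listed GABA genes were tested, 0 passed, 1 (Gabra4) had an unadjusted p under 0.05, and the median log2 fold change was 0.015. The units of 3 of the 21 did not overlap (Glud1, Gabra4 and Gphn), against 13.0% of all genes in either direction, a share near that of the list. All 3 had cKO above, against 5.76% of all genes in that direction. The single libraries of Glud1 and Gphn overlapped between the genotypes.

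**Figure D4:**
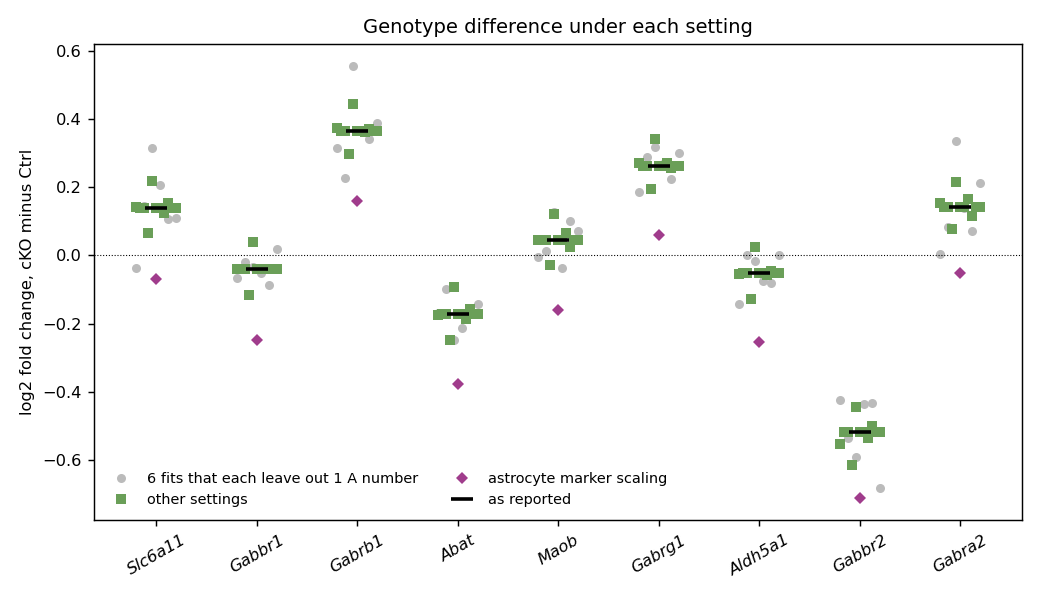
Log2 fold change of the 9 genes (cKO minus Ctrl) as reported (black bar), in the 6 fits that each leave out 1 A number (grey), under astrocyte marker scaling (purple) and under the other settings (green). Abat and Gabbr2 stay below 0 and Gabrb1 and Gabrg1 above 0 at every point, and the other 5 genes cross 0 at 1 to 4 of the 18 settings.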

How the data were processed

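RNA was sequenced from 12 libraries as paired reads of 125 bases, per the labels' protocols. FastQC, STAR, featureCounts and DESeq2 and the builds mm10 and GRCm38 are named in the submitters' processing notes. The deposited values are FPKM per gene, with the exonic length. Of 51948 genes matched to GENCODE M21 (GRCm38), 2.77% had the same start and end, so gene positions are as deposited, with the build unsettled. Depth was recovered from the steps of low values: 82.8% to 86.3% of the genes above 0 were within 0.01 of whole reads. Between 72.6% and 80.4% of the recovered whole numbers up to 20 were even, which leaves unsettled whether a pair counts as 2. Rows sharing a symbol (147 symbols) were summed.

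Genes with a mean of at least 1 FPKM entered a fit with limma 3.58.1, run under R 4.3.3 (variance trend, two-sided, Benjamini-Hochberg over 17540 genes) on log2(FPKM + 1), S1 and S2 averaged. This scale understates changes of low genes. The fit was tested on simulated data with effects larger than those of the 9 genes. Whether it finds effects of their size was not tested. Members and lists were chosen with earlier results of these data known. Beside the 9 genes, each wider list gives its 2 highest tested genes and any at an unadjusted p under 0.05; some genes of these lists are not reported here. Low genes named beside these, Maoa and the Kctd genes were added after their values were seen. Alternatives changed the pseudocount, filter, scaling, variance trend, averaging, libraries and model.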

Additional observations from a re-analysis of the deposited data

How the results depend on the processing

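The count of 0 genes past the threshold held under the other pseudocount, filters, scalings, variance setting, averaging and single S libraries. It was 112 (0 of the 9) when the 12 libraries were fitted with A as a random effect and 80 (0 of the 9) with the replicate block added, in which S1 and S2 are the replicate numbers and pair no Ctrl with a cKO unit. The cause was not tested. It ran from 0 to 1 when each A number was left out, the 1 arising without A1. The smallest adjusted p of any of the 9 genes over all settings was 0.133, for Gabrb1. The count of neighbouring levels under the threshold was 0 in each setting, and with 5 units it could not be otherwise.

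Signs changed in 24 of 288 combinations of named gene and setting, and 0 came to pass the threshold. Rescaling to 1000000 gave Maob -0.028. Upper quartile scaling gave Aldh5a1 0.024, Gabbr1 0.039, Sat1 0.031, Aldh1a1 0.067, Glul 0.0051 and Dbi 0.023. Astrocyte marker scaling, which shifted the median of all genes to -0.18, gave Slc6a11 -0.069, Maob -0.16, Gabra2 -0.052 and Glud1 -0.038. The cause was not tested. Leaving out each A number gave ranges of -0.038 to 0.31 for Slc6a11, -0.037 to 0.13 for Maob, -0.14 to 0.0026 for Aldh5a1, -0.086 to 0.019 for Gabbr1, -0.13 to 0.046 for Sat1, -0.24 to 0.20 for Aldh1a1 and -0.24 to 0.11 for Dbi. Each library held at least 1053 reads of each of the 9 genes, and what more units would show was not tested.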

Other observations

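Best1, which encodes a chloride channel described as a route of GABA release from astrocytes, was on the list of GABA genes but under the filter, and is named after its values were seen. It had 0.977, 1.81 and 2.27 FPKM in Ctrl A1, A2 and A8 and 0.227, 0 and 0.288 FPKM in cKO A4, A9 and A10. All 6 cKO libraries lay below all 6 Ctrl libraries. Libraries did not overlap in either direction for 7.10% of the 17540 genes above the filter, and this share was not computed without the filter. Without a filter on low values, where 33395 genes were tested, Best1 differed by -1.17 ± 0.29 (SE) on the log2 scale, which did not pass (limma adjusted p = 0.581).

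Gabrr1, a rho subunit of GABA-A receptors, was likewise named after its values were seen. It was listed at 0 in all 6 Ctrl libraries and stood at 0.109, 0.0656 and 0.452 FPKM in cKO A4, A9 and A10. The share of genes under the filter that are above 0 in cKO libraries alone was not computed. At most 26 reads were recovered in any library, and 5 libraries had more than 3 reads. The log2 fold change without a filter was 0.26 (limma adjusted p = 0.820).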
